A study of Mus musculus with 5 samples.

Results

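The c-Maf-only regions between genes are stretches of the mouse genome where both c-Maf antibody libraries had a peak, neither isotype library had one, and no protein-coding gene lay over the place. They were selected on the peak calls of all 4 antibody libraries. Peaks of the 4 lists that shared at least 1 bp were merged, and a merged region was kept when both c-Maf lists and neither isotype list contributed a peak to it, when it lay on chromosomes 1-19 or X, and when it overlapped no protein-coding gene span of the RefSeq table. This left 269 regions. They are part of 473 c-Maf-only regions on these chromosomes, of which 204 overlapped a gene, and of 111856 merged regions in all. Among the 67034 merged regions between genes, 0.401% were c-Maf-only. Since the calls chose the regions, their pileup and enrichment in the 4 libraries are given below as description, without a test, and the design has 2 libraries against 2, which allows 3 splits.

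Sequencing of DNA recovered by chromatin immunoprecipitation (ChIP-seq) was applied to bone marrow macrophages of C57Bl/6 mice, which the source and cell type labels describe as polarized to M2 in culture, while the titles carry M0. The c-Maf antibody group has 2 libraries, made with an antibody from LifeSpan BioSciences. The isotype control group has 2 libraries, made with normal rabbit IgG, and 1 input library was sequenced without precipitation. Within each group the libraries are numbered 3 and 4, which the design text calls biological replicates, and no genotype, dose or time separates the groups. Whether the numbers stand for separate animals is not stated, so the spread between them may be technical. Peak lists hold no RNA levels, so the cell type could not be checked against its markers.

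c-Maf belongs to the large Maf proteins, basic leucine zipper transcription factors that bind DNA as dimers. Its recognition element is built from copies of the core TGCTGA, and its relatives of the AP-1 family bind the related site TGANTCA. In macrophages c-Maf is known for driving Il10. DNA between genes carries promoters that reach out of the gene, and enhancers that can act over long distances on genes that need not be the nearest. Nearness to a gene is therefore a position and not a target.

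The promoter windows of RefSeq (assembly GRCm38.p6, from 250 bases before a transcription start to 50 after it) hold the sequence of members in front of the starts they list, coding or not. The windows reached 6 of the 269 members. The whole of 5 of them is shown 5′ to 3′ on the strand of the named gene, because these are the members whose letters can be read beside a start. Capitals mark TGCTGA, the Maf core, on either strand.
Zfp143 (chr7:110061518-110061681, + strand, 184 to 21 bases before the start): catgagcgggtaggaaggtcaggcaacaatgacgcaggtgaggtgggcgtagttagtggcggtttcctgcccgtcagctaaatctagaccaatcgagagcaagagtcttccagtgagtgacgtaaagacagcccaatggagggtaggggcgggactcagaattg
C1qc (chr4:136892952-136893110, - strand, 196 to 38 bases before the start): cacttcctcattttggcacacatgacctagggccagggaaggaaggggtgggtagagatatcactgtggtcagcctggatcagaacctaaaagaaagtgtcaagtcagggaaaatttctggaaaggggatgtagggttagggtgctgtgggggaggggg
Cltc (chr11:86757598-86757769, - strand, 202 to 31 bases before the start): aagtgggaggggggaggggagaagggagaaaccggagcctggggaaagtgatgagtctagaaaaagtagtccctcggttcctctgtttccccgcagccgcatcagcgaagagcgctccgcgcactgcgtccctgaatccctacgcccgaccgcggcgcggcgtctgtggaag
Acss2 (chr2:155517873-155517986, + strand, 170 to 57 bases before the start): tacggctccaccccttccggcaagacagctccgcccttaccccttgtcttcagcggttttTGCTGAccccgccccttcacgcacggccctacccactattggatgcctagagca
Smkr-ps (chr6:29985094-29985172, + strand, 235 to 157 bases before the start): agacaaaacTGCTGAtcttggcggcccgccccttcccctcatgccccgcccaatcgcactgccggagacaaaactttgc

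TGCTGA occurred once in the Acss2 member and once in the member before Smkr-ps, a pseudogene that does not count as protein-coding here. It did not occur in the members before Zfp143, C1qc and Cltc, which says only that these letters are not in those windows. Over the same window of all 32619 promoters in the table, TGCTGA was present in 7.6% for the Acss2 window, 5.16% for Smkr-ps, 10.9% for Zfp143, 10.84% for C1qc and 11.57% for Cltc. TGANTCA occurred in none of the 5, against 1.91% to 4.89% of all promoters in these windows. The sixth member lay over the start of the RNA gene Gm40504, where the window held 46.6% of it, and neither motif occurred there. The Cltc member also lay over the start of an RNA gene, Gm42085 on the + strand, whose window held 95.9% of that member. A match of this kind is a description and not a binding site.

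The count of CpG dinucleotides set the C1qc member apart from the other 4 shown, while its share of G and C was close to that of the Zfp143 member. No CpG count over all promoters is given beside it. G and C made up 63.4% of the Cltc member, 61.4% of the Acss2 member, 60.8% of the Smkr-ps member and 54.9% of the Zfp143 member, beside medians of 52.9%, 52.6%, 50.6% and 53.0% for the same windows of all promoters. The C1qc member had 52.2%, beside a median of 52.8%. CpG dinucleotides numbered 16 in the Cltc member, 8 in that of Zfp143, 7 in that of Acss2 and 5 in that of Smkr-ps, whereas the C1qc member held 0.

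In the sentences that follow, pileup is the number of scaled tags over the peak's highest base. Fold divides it by the input level that the caller set for that place, with 1 added to both. Both are the authors' values for single peaks. A q is the authors' estimate of the false discovery rate, and 0.05 was taken as its threshold.

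Zfp143, a zinc finger transcription factor that binds many promoters, began 7 bp from its member, the closest approach to a gene. The pileup there was 11.65 in number 3 and 9.87 in number 4, and the fold was 8.1 and 7.08. Eif4ebp1, which restrains translation by holding the cap-binding factor eIF4E, lay 9 bp from the member chr8:27260169-27260317. That member had a pileup of 12.62 and 10.86 and a fold of 6.81 and 6.89. Both members passed a q of 0.05 in both libraries, and the 2 libraries gave nearly the same fold at each.

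The C1qc member lay 15 bp from that gene and 2805 bp from C1qa. Both genes encode chains of C1q, the recognition part of the first complement component, which macrophages make. Its pileup was 7.76 in number 3 and 7.89 in number 4, its fold 5.46 and 4.45, and its −log10 q 1.35 and 0.23. Only the value of number 3 passed the threshold. Cltc, the heavy chain of clathrin, was 30 bp from a member with a pileup of 7.76 and 5.92 and a fold of 4.38 and 4.33. Acss2, which makes acetyl-CoA from acetate in the cytosol and nucleus, was 56 bp from a member with a pileup of 5.82 and 7.89 and a fold of 4.48 and 5.94. Neither library passed at Cltc, and number 4 alone passed at Acss2. The Smkr-ps member lay 25.41 kb from Strip2 and 62.81 kb from Nrf1, with a pileup of 6.79 and 5.92 and a fold of 4.6 and 4.33.

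Of the other members among the 10 nearest to a gene, those beside Cwc27 (449 bp) and Ndfip2 (1138 bp) were low, with a pileup of 4.85 and 5.92 and of 3.88 and 5.92. The member 461 bp from Slc15a3, a lysosomal peptide and histidine transporter, had a pileup of 8.74 and 7.89 but a fold of 3.25 and 5.78. The last 2, beside Gm21083 (399 bp) and 4930467E23Rik (778 bp), lay in the dense stretches described further on. In all, 9 members lay within 1 kb of a gene and 38 within 5 kb. For the 38 the pileup ran from 3.88 to 21.35 in number 3 and from 4.93 to 17.76 in number 4, and their median fold was 4.45 and 4.47.

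The following 5 members were picked from the 38 after their values were seen, for what is known of their genes, so they stand for no group. Tlr9, the endosomal receptor for unmethylated CpG DNA, was 3.216 kb from a member that also lay 3.237 kb from Alas1, the first enzyme of haem synthesis. Its pileup was 12.62 in number 3 and 4.93 in number 4, and its fold 8.42 and 3.74. Zfp36 encodes tristetraprolin, which speeds the decay of cytokine mRNAs, and its member at 2.058 kb had a pileup of 7.76 and 4.93 and a fold of 4.99 and 3.33. Dusp1, a phosphatase of MAP kinases, lay 2.427 kb from a member with a pileup of 10.68 and 5.92 and a fold of 5.84 and 3.46. At these 3 members number 3 was the higher library. Ncf1, a subunit of the phagocyte NADPH oxidase, had a member at 1.83 kb with a pileup of 5.82 and 4.93 and a fold of 4.43 and 3.9. The member at 1.911 kb from Lmo2, a transcriptional adaptor of blood cell development, went the other way, with a pileup of 6.79 and 10.86 and a fold of 2.6 and 7.41. None of these 5 passed a q of 0.05 in both libraries.

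Of the 20 best-ranked members, 10 lay within 10 kb of a gene, beside 67 of all 269, and the others lay farther out. The best-ranked member, chr1:12616179-12616361, stood 75.83 kb from Sulf1, which trims sulfate groups from heparan sulfate outside the cell, and 640.3 kb from A830018L16Rik on its other side. Its pileup was 29.12 in number 3 and 19.74 in number 4, with a fold of 15.06 and 10.37. The second, chr2:126591444-126591666, lay in the short interval between Slc27a2 (3.2 kb), a fatty acid transporter and acyl-CoA synthetase, and Hdc (1.992 kb), the enzyme that makes histamine, beyond the 3′ end of Hdc. Its pileup was 21.35 and 17.76 and its fold 13.2 and 11.3. These 2 were the only members with a fold of at least 10 in both libraries, and 23 reached a fold of 5 in both.

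The third-ranked member, chr10:37231932-37232123, had Marcks on its lower side at 93 kb and Rfpl4b on its higher side at 1588 kb. Marcks is a target of protein kinase C that links the membrane to actin. The member had a pileup of 16.5 and 11.84 and a fold of 8.75 and 7.74. The fourth, chr5:53401209-53401367, lay 154.4 kb from Rbpj, the DNA-binding partner of Notch, and 122.7 kb from Smim20. Its pileup was 12.62 and 12.83 and its fold 6.81 and 8.45. The fifth, chr17:26101565-26101850, had genes close on both sides, Nme4 at 6.041 kb, a mitochondrial nucleoside diphosphate kinase, and Pgap6 at 10.9 kb. There the pileup was 11.65 and 9.87 and the fold 8.44 and 7.37.

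A q of 0.05 or smaller in both libraries was met by 16 members, or 5.95%. Number 3 alone or with number 4 passed at 51 members (18.96%), beside 3.06% of all peaks in that list, and number 4 at 33 (12.27%), beside 2.87% of its list. Peaks that recur in both lists were picked by the rule, so nothing is read from that difference. Neither library passed at 201 members. Of the 16, 8 lay within 10 kb of a gene and 2 lay over 100 kb from any, with a range from 7 bp to 656.6 kb. The latter was chrX:117770482-117770633, between H2ab1 and Tgif2lx2, with a pileup of 8.74 and 7.89.

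Other members of the 16 are given with their flanking genes, some of which are distant. Cd82, a tetraspanin of the cell surface, was 136.9 kb and Alx4 42.4 kb from chr2:93599889-93600037, where the pileup was 20.38 and 10.86. Tifab, an inhibitor of the TIFA adaptor, was 2.539 kb from chr13:56181542-56181806, with 10.68 and 9.87. Vav3, a guanine nucleotide exchange factor, was 85.16 kb from chr3:109255067-109255300, with 8.74 and 8.88. Pik3r1, the regulatory subunit of PI 3-kinase, was 821.4 kb and Slc30a5, a zinc transporter, 25.69 kb from chr13:100859170-100859382, with 17.47 and 9.87. Fpr2, a receptor for formylated peptides, was 6.892 kb from chr17:17900845-17901003, with 7.76 and 7.89. Number 3 had the larger pileup at the members whose nearest genes were Alx4 and Slc30a5, and the libraries were close at the others. The remaining members of the 16 were chr16:25058135-25058362, 65.56 kb from Lpp, chr18:82902617-82902728, 6.959 kb from Zfp516, and chr5:15576821-15576893, the member beside Gm21083.

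**Figure D1:**
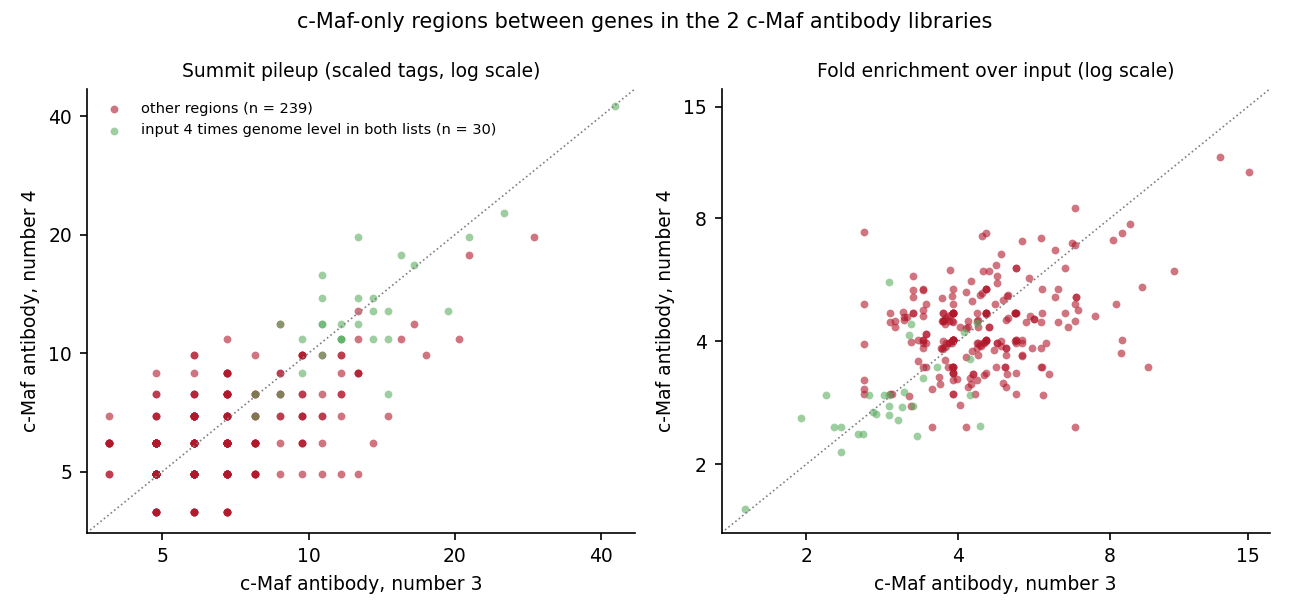
Each point is 1 of the 269 c-Maf-only regions between genes, with number 3 on the horizontal and number 4 on the vertical log axis, for summit pileup in scaled tags (left) and fold enrichment over input (right). The dotted line marks equal values, green points are the 30 regions with an input level of at least 4 times the genome-wide level in both lists, and the 2 points at the upper right of the fold panel are the members near Sulf1 and Hdc.

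Most members were weak peaks. The median pileup was 6.79 in number 3 (range 3.88 to 42.71) and 5.92 in number 4 (3.95 to 42.43), beside 5.82 and 5.92 over all peaks of the 2 lists. The median fold was 4.19 and 4.02, beside 3.89 and 3.96. With so few tags a single value carries a large counting error. Number 3 had the higher fold at 134 of the 269 members, so neither library led in fold. Its median pileup was the larger, and it passed a q of 0.05 at more members (51 against 33). Across the 269 members Spearman's rank correlation between the libraries was 0.59 for pileup and 0.37 for fold, and 0.44 and 0.23 over the 239 members without a high input level (defined further on). Both lists used the same input, and all points passed the same threshold in both, so these are descriptions only. Among the weakest calls, chr5:15661833-15661990 entered with a −log10 p of 2.05 in its weaker library, just above the caller's limit of 2.

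The members lay nearer to genes than the isotype-only regions did, which are the 283 regions between genes found with the antibodies exchanged in the rule. The median distance to the nearest protein-coding gene was 37.97 kb for the members, with quartiles of 10.23 and 120.8 kb. It was 98.07 kb for isotype-only regions, with quartiles of 32.4 and 316.9 kb. Over all bases between genes the median was 82.37 kb. Regions between genes that a single list held had medians of 61.96 kb for c-Maf antibody number 3, 73.55 kb for number 4, and 81.58 and 73.56 kb for isotype numbers 3 and 4. Within number 3 the c-Maf antibody list thus had the shorter median, while within number 4 the medians were nearly equal. No test was made of these differences, because the members and the isotype-only regions come from 2 libraries each.

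Within 5 kb of a gene lay 38 members, or 14.13% (95% Wilson interval 10.47 to 18.79), and 20 isotype-only regions, or 7.07% (4.62 to 10.66), while 9.53% of all bases between genes are that close. Within 10 kb the shares were 24.91% (20.12 to 30.4) and 11.31% (8.12 to 15.53). Over 100 kb from any gene lay 80 members, or 29.74% (24.59 to 35.46), and 139 isotype-only regions, or 49.12% (43.34 to 54.91), beside 46.21% of all bases. The intervals cover counting error only.

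The order did not hold in every setting. Members were nearer in 13 of 14 alternatives. At a q of 0.05 or smaller the order turned, with 25.69 kb over 21 c-Maf-only regions and 24.0 kb over 7 isotype-only ones. Of those 21 regions, 16 were members, since the classes were made anew from the peaks that passed. The 14 reuse the same data and are not separate checks. Those on high input and dense stretches were set after the data were seen. Those that drop a library set regions of a single list beside regions shared by both lists. Dropping a c-Maf antibody library, which lets regions of the other list in by itself, raised the median to 72.06 kb without number 3 and to 61.28 kb without number 4. The median of 37.97 kb therefore holds for regions that both lists share.

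**Figure D2:**
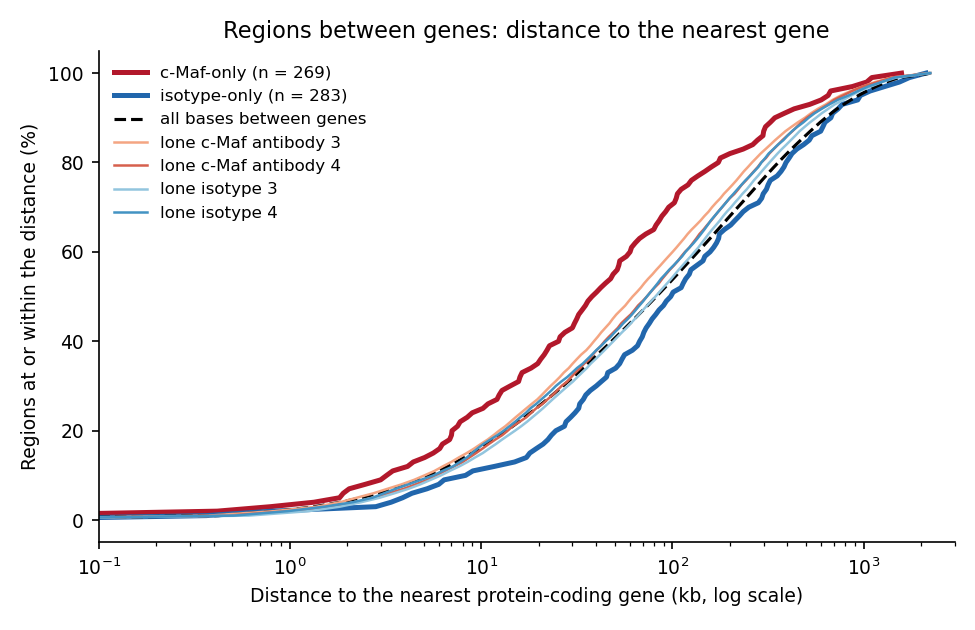
Cumulative share of regions between genes (%) against the distance to the nearest protein-coding gene (kb, log axis), for the 269 c-Maf-only and 283 isotype-only regions, regions of a single list and all bases between genes. The c-Maf-only curve runs left of the others over most of the range, with medians of 37.97 kb and 98.07 kb for the c-Maf-only and isotype-only regions.

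Both flanks can be given for 268 of the members, since chrX:170735513-170735635 had no gene on its higher side. The gene on the farther side was at a median of 153.9 kb, against 424.7 kb for isotype-only regions. The median interval between the 2 flanking genes was 190.6 kb, against 555.0 kb, so the members sat in shorter stretches between genes. Regions of a single list lay between these values. Their medians were 352.5 and 394.3 kb for c-Maf antibody numbers 3 and 4, and 439.8 and 402.3 kb for isotype numbers 3 and 4. Genes within 10 kb on both sides were found at 17 members (6.34%) and at 5 isotype-only regions (1.79%). At the other end, 20 members and 45 isotype-only regions had no gene within 500 kb on either side.

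The most remote member, chr8:51931111-51931208, lay 2408 kb from Tenm3 and 1580 kb from Aga. Its pileup was 4.85 and 3.95 and its fold 3.55 and 3.06. Next came chr16:83186970-83187050, 1563 kb from Ncam2 and 1531 kb from Mrpl39, with a pileup of 6.79 and 4.93, and chr8:97039888-97039971, 1151 kb from Got2, with 5.82 and 6.91. The 10 farthest members had a pileup of 4.85 to 6.79 in number 3 and of 3.95 to 6.91 in number 4, and no library passed a q of 0.05 at any of them.

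Over all members the median fold differed little between distance classes. Pileup was higher near genes, and a larger share of members there met a q of 0.05 in both libraries. The median pileup was 8.74 in number 3 and 7.89 in number 4 within 1 kb, 6.79 and 6.91 from 1 to 10 kb, 6.79 and 5.92 from 10 to 100 kb, and 5.82 and 5.92 beyond. The median fold was 4.42 in number 3 and 4.58 in number 4 for the 9 members within 1 kb, and 4.19 and 4.43 for the 58 members from 1 to 10 kb. It was 4.18 and 4.02 for the 122 from 10 to 100 kb, and 3.91 and 4.02 for the 80 beyond. A q of 0.05 in both was met by 3 of the 9 members within 1 kb, 5 of the 58 from 1 to 10 kb, 6 of the 122 from 10 to 100 kb and 2 of the 80 beyond. Among members without a high input level (defined further on), the median fold in number 4 was 5.78 for the 7 within 1 kb. It was 4.49, 4.17 and 4.02 in the classes farther out. In number 3 these medians were 4.48, 4.38, 4.37 and 3.91. Over all members the median input level in number 3 was 2.0, 1.39, 1.39 and 1.14 times the genome-wide level, from the nearest class to the farthest. A trend was not tested.

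The members were narrow. The median width of the merged region was 120 bp (63 to 368), against 98 bp for isotype-only regions, and 25 members (9.29%) exceeded 200 bp, against 3 isotype-only regions (1.06%). The caller's shortest peak follows the fragment length that it estimated, 63 and 60 bp for the c-Maf antibody lists and 53 and 56 bp for the isotype lists, so the widths of the 2 kinds are not on one scale. The 2 peaks of a member shared a median of 60 bp (2 to 179). Their summits lay a median of 30 bp apart and within 50 bp at 191 members (71.0%), against 73.5% of isotype-only regions.

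The widest member was chr9:123931910-123932277 with 368 bp, in the chemokine receptor cluster 29.85 kb from Ccr1 and 69.88 kb from Xcr1. Its pileup was 15.53 in number 3 and 10.86 in number 4, its fold 5.98 and 3.95. It was followed by 321 bp at chr4:3083713-3084033, where the summits were 267 bp apart, and by 303 bp at chr1:130918548-130918850 between Il20 and Il19. The next were 302 bp at chr7:142398065-142398366, 10.24 kb from Ctsd, the lysosomal protease cathepsin D, and 286 bp at the Nme4 member. Among the 5 narrowest members, 4 measured 63 bp and the other 66 bp.

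Some members lay close to the limits of the rule. At 3 members the 2 peaks shared 2 bp, one of them chr5:122145584-122145717 between Ccdc63 and Ppp1cc. An isotype peak lay 4 bp from chr1:94381674-94381747, between Pdcd1, the inhibitory receptor PD-1, and Fam174a. Just outside, peaks of numbers 3 and 4 missed each other by 3 bp on chromosome 19 between Cyp2c66 and Cyp2c29, and 26 such pairs lay within 50 bp of one another. A c-Maf-only region that reached 3 bp into Gm15319 and one that reached 31 bp into Idh1 were not members. An isotype peak stood within 1 kb of 38 members (14.13%) and within 10 kb of 133 (49.44%).

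A set of members lay where the input level set by the caller was high. The level that the caller set for each peak, read back from pileup and fold, was expressed as a multiple of the genome-wide level. Over all peaks of both c-Maf lists its minimum was 1.0, so the genome-wide level is its floor. It is therefore not a plain count of input tags at the summit. It was at least 4 times that level in both lists at 30 members (11.15%) and at 18 isotype-only regions (6.36%), and in either list at 45 members (16.73%) and 24 isotype-only regions (8.48%). The limit of 4 was chosen after the values were seen, and since it amounts to about 2 scaled tags it is a coarse one. The 30 had a median pileup of 12.14 in number 3 and 11.84 in number 4 but a median fold of 2.92 and 2.77. The other 239 had 6.79 and 5.92 with a fold of 4.35 and 4.33. An isotype peak lay within 10 kb of 29 of the 30 (96.67%) and of 104 of the 239 (43.51%). The highest pileup of all members, 42.71 and 42.43 at chr3:8246282-8246393 between Il7 and Stmn2, went with an input of 56.16 and 56.85 times the genome-wide level and a fold of 1.51 and 1.55.

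Most of these stood in 2 stretches, defined afterwards as windows of 1 Mb with at least 5 members. One on chromosome 8, from 19698747 to 20698404, held 14 members, 12 of high input, among the genes 4930467E23Rik, 9530057J20Rik, Gm15319, Gm40469 and Gm21119. Their pileup was 7.76 to 19.41 in number 3 and 7.89 to 13.82 in number 4, and their fold 2.27 to 4.7 and 2.37 to 4.4. The other on chromosome 5, from 14986730 to 15661990, held 9 members, all of high input, among Gm17019, Gm21149, Gm21190, Gm21083 and Speer4d. Their pileup was 11.65 to 25.24 and 10.86 to 22.7, and their fold 1.95 to 4.35 and 2.37 to 4.44. All 4 libraries had many peaks in both places. On chromosome 8 the c-Maf lists had 121 and 80 peaks and the isotype lists 86 and 92. On chromosome 5 the c-Maf lists had 72 and 86 and the isotype lists 43 and 97. Together the stretches held 8.55% of the members and 0.416% of all merged regions on chromosomes 1-19 and X, those inside genes included. Of the 283 isotype-only regions between genes, 6 lay in the stretch on chromosome 8 and 2 in that on chromosome 5. How much of the count there comes from the input level was not tested.

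**Figure D3:**
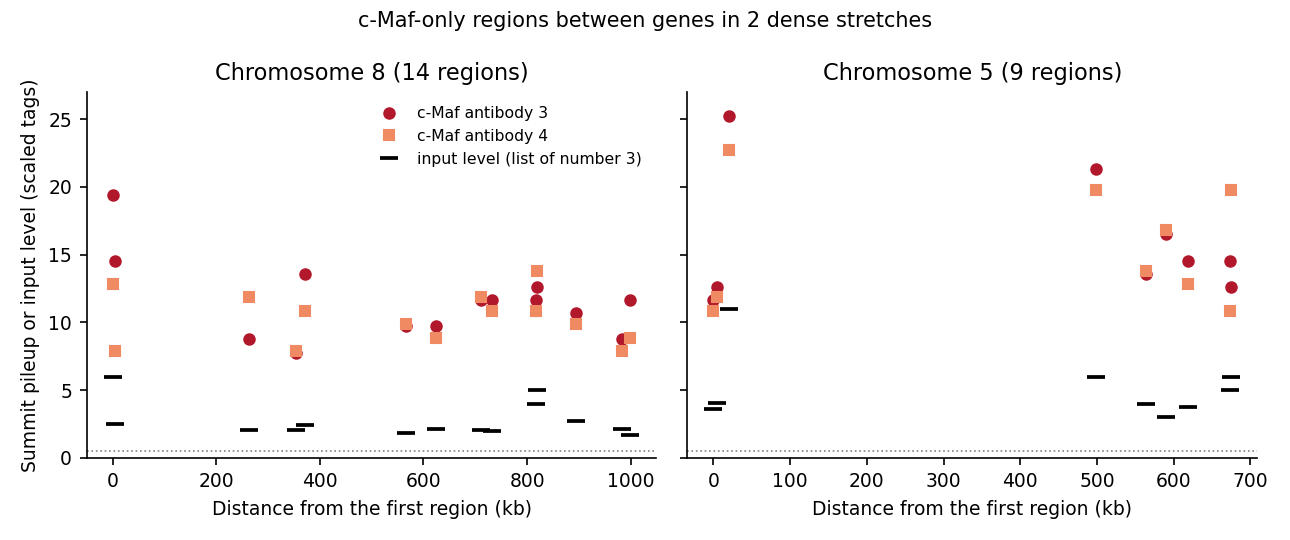
Summit pileup in the 2 c-Maf antibody libraries and input level in scaled tags for the members of the dense stretches on chromosome 8 (14 regions) and chromosome 5 (9 regions), by distance from the first region in kb. The black dashes, read from the list of number 3, are the level that the caller set. They stand above the dotted genome-wide level of 0.499 at every region, and that level is their floor in this list.

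Without the 30 members of high input the median distance to a gene was 44.98 kb, and 113.7 kb for isotype-only regions treated alike. Without the dense stretches it was 42.3 and 108.5 kb. Chromosome 8 held 32 members, or 25.35 per 100 Mb, and 15.84 per 100 Mb without those of high input. By count, chromosome 1 followed with 27 and chromosome 5 with 22, while chromosomes 18 and 19 had 4 each. By rate, chromosome 13 followed with 16.2 per 100 Mb, and with 14.49 without members of high input. Isotype-only regions numbered 23 on chromosome 8 and 26 on chromosome 1.

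**Figure D4:**
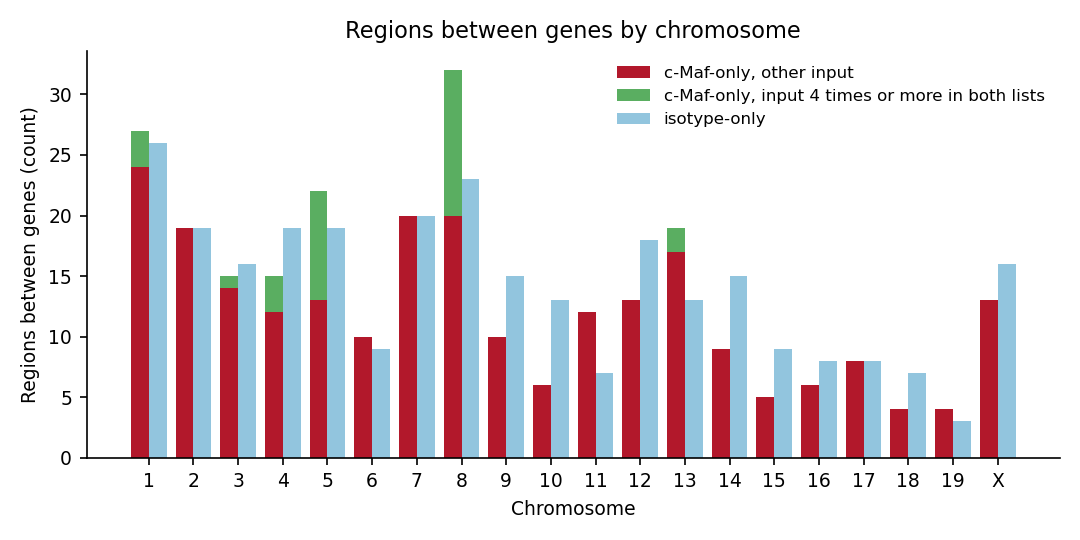
Number of c-Maf-only and isotype-only regions between genes on each chromosome, with members of high input in both lists stacked in green. Chromosome 8 has the most members (32), of which 12 are of high input.

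Members also lay next to each other. In 7 places a pair was within 5 kb, and 4 of these were in the dense stretches. The others were a pair 125 bp apart between Nacc2 and Tmem250-ps, a pair 207 bp apart between Zxdb and Spin4 on the X chromosome, and a pair 1883 bp apart between Hjurp and Trpm8, both of high input. At the Nacc2 pair the pileups were 11.65 and 6.91 at one member and 6.79 and 8.88 at its neighbour.

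Flanking genes were counted from 10 lists of 136 genes in all, chosen with earlier results of these data known. Some lists hold genes with a known tie to macrophages or to c-Maf. Others hold genes of other cell types or housekeeping genes, so the pooled share is not one of macrophage genes. Of all 21631 protein-coding genes, 2.19% were the nearest on a side of a member, and 1.24% were so within 100 kb. Among the 136 listed genes 7 were, all within 100 kb (5.147%). Of the 7, Hdc and Fcer1a belong to the list of neutrophil and mast cell genes. Isotype-only regions had 0.8414% of all genes within 100 kb and 0 of the 136. These shares describe 7 genes beside 6 members and carry no test.

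Of 16 reported c-Maf targets, 2 were flanking genes, C1qa and C1qc, both at the member shown above. Of 20 macrophage identity genes 1 was, Mertk, a tyrosine kinase receptor with which phagocytes take up apoptotic cells. Its member at chr2:128806695-128806907, 3.532 kb away and past the gene's 3′ end, had a pileup of 9.71 and 7.89 and a fold of 5.89 and 2.96. Of 28 basic leucine zipper genes, Maf itself and Fos were flanking. The member near Maf, chr8:115650260-115650514, lay 52.74 kb from it, with a pileup of 9.71 in number 3 and 5.92 in number 4 and a fold of 6.8 and 4.48. The one near Fos, a subunit of AP-1, was chr12:85455096-85455276 at 18.61 kb, with 11.65 and 7.89 and a fold of 6.32 and 4.45. At the Mertk, Maf and Fos members number 3 passed a q of 0.05 and number 4 did not.

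Of 10 neutrophil and mast cell genes, Hdc and Fcer1a were flanking. Fcer1a encodes a chain of the high-affinity IgE receptor, and its member at 4.096 kb had a pileup of 7.76 and 5.92 and a fold of 5.64 and 4.53. No flanking gene came from the lists for alternative activation (18 genes), classical activation (14), housekeeping, neurons, T and B cells, or fibroblasts. Il10, Csf1r and Mrc1 were thus not among the genes next to a member. Absence from this count means only that no member was adjacent, since members inside genes are not part of it.

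Non-coding genes or pseudogenes of the table overlapped 39 members (14.5%), 32 of them long non-coding RNAs, against 16.13% of the 279 isotype-only regions with a gene on both sides. The 3 best-ranked of the 39 overlapped Gm31657 (rank 10, the Tifab member), Gm30613 (rank 13, the member near Gm21083) and Gm30889 (rank 15, the member near Zfp516). The promoter table gave a strand for the nearest gene of 209 of the 269 members (77.7%), which is too few for a count of starts against ends, so none is given.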

How the data were processed

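Peaks were called by the authors per library with MACS 2.1.1.20160309 against the number 4 input at a p-value of 0.01, with the effective genome size set to 2700000000, per the file headers. Which aligner was run was not given in the sources used here, and the build was mm10 per the submitters' processing notes. Each deposited peak carries a summit pileup signal, a fold ratio and −log10 p and q, per the file headers. The lists held 23434 and 17620 peaks for c-Maf numbers 3 and 4, and 58732 and 15568 for the isotype, from 21655683 to 22017759 tags after filtering. 

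Merging, distances and counts were computed in Python 3.11.15 with pandas 2.3.3 and numpy 2.4.6, and tested on simulated data. Genes were the 21631 protein-coding spans of RefSeq GRCm38.p6 on chromosomes 1-19 and X. The input level was taken as (pileup + 1) divided by fold, minus 1. On that basis −log10 p recomputed within 0.05 for at least 99.99% of peaks of each list. Members, gene lists and the rule for named regions were chosen with earlier results of these data known. The rule takes the 20 best-ranked members, those of q 0.05 in both libraries, the 10 nearest and farthest, the 5 widest and narrowest, pairs within 5 kb and those beside a listed gene, described in part. Some members were named outside the rule, among them the 5 picked for what is known of their genes. The limit for high input was set after the data were seen, first for either c-Maf list and then for both, and both counts are given.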

Additional observations from a re-analysis of the deposited data

How the results depend on the processing

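No paired analysis was possible because the result comes from no test. At a p of 1e-05 or smaller there were 41 c-Maf-only and 25 isotype-only regions between genes, with medians of 25.69 and 44.95 kb, shares within 5 kb of 26.83% and 12.0%, and shares over 100 kb of 12.2% and 40%. At a q of 0.05 or smaller there were 21 and 7, with medians of 25.69 and 24.0 kb, 23.81% and 14.29% within 5 kb, and 23.81% and 42.86% over 100 kb. Of these c-Maf-only regions, 38 of the 41 and 16 of the 21 were members. A reciprocal overlap of 50% left 161 and 157, with 43.31% of the isotype-only regions over 100 kb. Lists of equal length left 208 c-Maf-only and 111 isotype-only regions, with medians of 39.15 and 79.17 kb. The latter is near the 82.37 kb of all bases between genes. Leaving out each of the 4 libraries in turn gave 291 to 12961 c-Maf-only regions, with a median of 35.28 to 72.06 kb, 8.823% to 16.88% within 5 kb and 27.71% to 43.11% over 100 kb. It gave 311 to 34498 isotype-only regions, with a median of 74.36 to 86.31 kb. The high counts belong to the settings that drop a library of the group itself, which then needs a peak of 1 list only. In all, 44 values moved beyond their interval, or for counts by over 1.5 times, and 109 did not. Alternatives that need the sequence of every region were not run. Low tag numbers limit any single member.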
